A study of Mus musculus with 6 samples.

Results

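The core of the circadian clock was followed through 10 genes in the liver of wild-type mice and mice lacking *Tcf7l2* in the liver: *Arntl*, *Clock*, *Npas2*, *Per1*, *Per2*, *Per3*, *Cry1*, *Nr1d1*, *Nr1d2* and *Dbp*. They were chosen by symbol, and each had exactly 1 row among the 23282 genes counted. All 10 passed the filter on low counts, which left 14076 genes. Liver RNA was sequenced from 3 wild-type (WT) animals carrying floxed alleles without Cre (*Tcf7l2 f/f*) and from 3 knockout (KO) animals with the same floxed alleles and an albumin-driven Cre (*Alb-Cre;Tcf7l2 f/f*), all 12 weeks old and of strain C57BL/6 by the labels (C57BL/6N in the study's methods). Every animal had been fasted for 24 h and then refed normal chow for 24 h. The albumin promoter acts in hepatocytes, so other liver cells of the KO animals keep the gene. Animals carrying Cre without floxed alleles were not among the samples. The labels do not give the hour at which livers were taken. With 1 time point per animal, a difference in clock phase, a difference in the hour of sampling and a change in level at the same phase cannot be told apart.

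The clock of a liver cell is a transcriptional loop. ARNTL (also called BMAL1) pairs with CLOCK or NPAS2 and switches on genes through E-boxes. Among these genes are *Per* and *Cry*, whose proteins return to the nucleus and silence the pair, and *Nr1d1* and *Nr1d2*, whose REV-ERB proteins repress *Arntl*, *Clock*, *Npas2*, *Nfil3* and *Cry1* at RORE sites. DBP, TEF and HLF activate, and NFIL3 represses, genes with D-boxes such as the *Per* genes. In mouse liver the transcripts therefore peak in a fixed order: *Arntl*, *Clock*, *Npas2* and *Nfil3* around dawn, *Nr1d1*, *Dbp*, *Ciart*, *Per3*, *Nr1d2*, *Tef* and *Hlf* in the light phase, *Per1* and *Per2* around dusk, and *Cry1* late at night. Feeding, glucocorticoids and body temperature set the phase of the liver clock, and *Per1* and *Per2* also respond directly to such signals.

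The elements through which the loop is wired were looked for on both strands of RefSeq promoter windows of GRCm38.p6, the assembly also known as mm10, each reaching from 250 bases before a transcription start to 50 bases after it. Of the 10 clock genes, 9 had at least 1 window, with 13 windows in all, and *Per2* had none. The E-box CACGTG was present in the windows of *Per1* and *Cry1*, and in 7.15% of all 32851 windows. The D-box, TTATGTAA or TTACGTAA, was present in *Per3* at 2 places, and in 1.06% of all windows. The RORE core, TAGGTCA or TGGGTCA, was present in *Arntl*, and in 6.45% of all windows. The CRE TGACGTCA and the TCF/LEF site, CTTTGAT or CTTTGAA, were found in 0 of these windows, against 1.79% and 8.65% of all windows. No match overlapped another. A match is a stretch of letters and not a measured binding site. The 5 matches are shown in stretches of 30 bases, read 5′ to 3′ on the strand of the gene with the element in capitals, because they are the elements of the loop found in these windows, and *Cry1* and *Per1*, which share the E-box, are both repressor genes of the loop.
*Cry1* E-box, starting 60 bases before the start site, chr10:85185097-85185126, minus strand: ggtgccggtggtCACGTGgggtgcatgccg
*Per1* E-box, starting 166 bases before the start site, chr11:69098771-69098800, plus strand: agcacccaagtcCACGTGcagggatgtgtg
*Per3* D-box, starting 205 bases before the start site, chr4:151044852-151044881, minus strand: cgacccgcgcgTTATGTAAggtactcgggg
*Per3* D-box, starting 158 bases before the start site, chr4:151044805-151044834, minus strand: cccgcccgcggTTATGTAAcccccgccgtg
*Arntl* RORE core, starting at base 31 of the transcript of its second window, chr7:113207530-113207559, plus strand: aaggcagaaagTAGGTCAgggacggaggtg

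The libraries held from 60619938 to 133384586 counts, and the 20 *Mup* genes, which encode abundant secreted urinary proteins, took 31.7 to 54.3% of the counts in WT and 18.5 to 28.7% in KO. Levels are therefore given as CPM, the share of a gene in its library's counts after scaling of the library by its trimmed mean of M-values (TMM) factor. *Tcf7l2*, the targeted gene, stood at 4.88, 6.13 and 6.85 CPM in WT and at 3.31, 2.74 and 3.33 CPM in KO (log2 fold change −0.93, standard error [SE] 0.19, adjusted *p*=0.0856). Its counts cover the whole transcript, floxed exon included, so remaining counts do not measure intact mRNA. Hepatocyte markers were abundant, with a summed level of 61760 to 68200 CPM in WT and 53940 to 77830 CPM in KO. Of these 6 markers, edgeR called 0, against 0.448% of all genes.

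The clock genes of the KO livers did not move as a block. *Per2* and *Cry1*, both repressors of the loop, were about 2-fold or more higher in KO, *Nr1d1* was lower, and *Per1*, *Npas2* and *Dbp* differed by less than their spread. By edgeR's quasi-likelihood test, adjusted over all genes, 0 of the 10 were called at an adjusted *p* of 0.05, where 0.448% of all genes tested were called. DESeq2 called *Per2* and *Cry1*, where it called 3.08% of all genes. At an unadjusted *p* under 0.05, 3 of the 10 were higher in KO (*Per2*, *Cry1* and *Nr1d2*), against 6.7% of all genes, and 1 was lower (*Nr1d1*), against 6.76%. Every KO library lay above every WT library for *Per2*, *Cry1* and *Nr1d2*, as for 10.2% of all genes. Every KO library lay below every WT library for *Arntl*, *Clock* and *Nr1d1*, as for 9.08% of all genes. The median log2 fold change was 0.19 over the 10 clock genes and −0.02 over all genes tested. When library sizes alone were used for scaling, the all-gene median became 0.61, and relative to that median all 10 clock genes kept the sign given here.

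**Figure D1:**
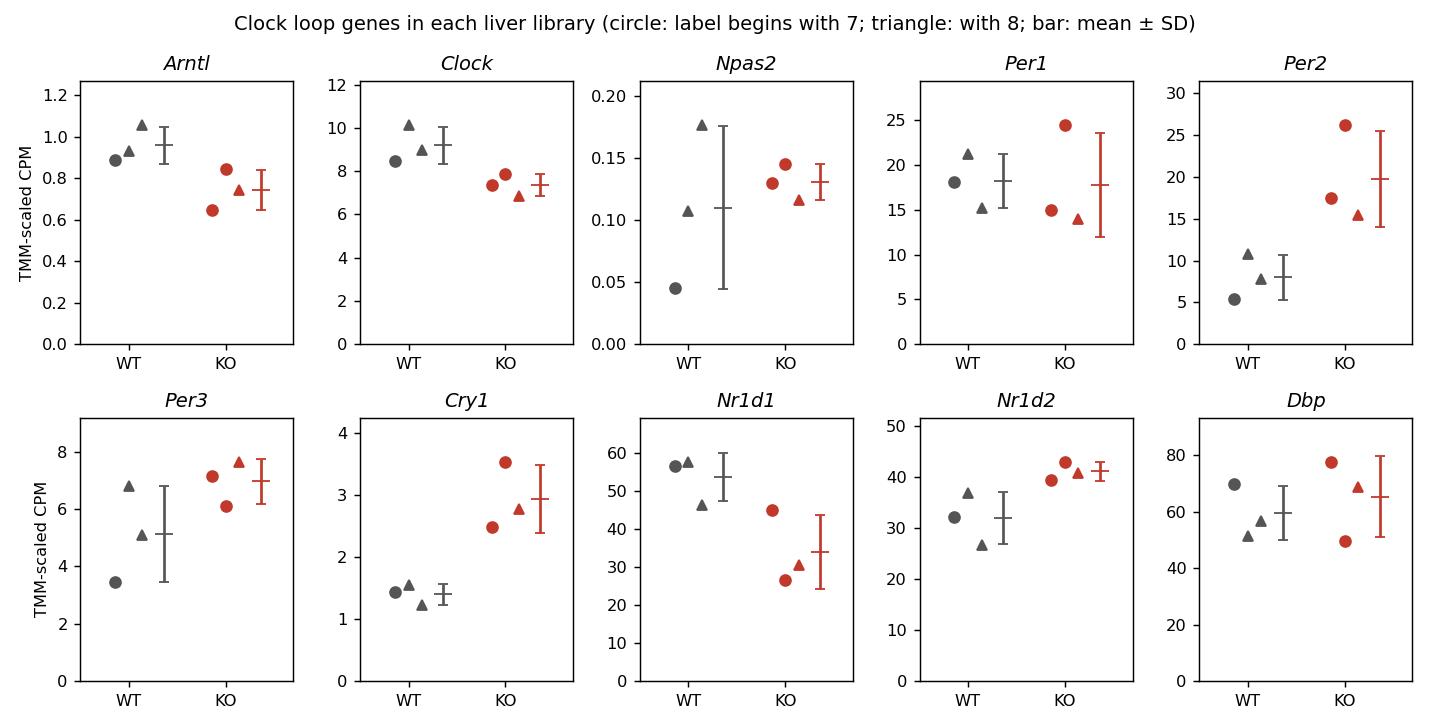
TMM-scaled CPM (vertical axes, from 0, a separate scale for each gene) of the 10 clock genes in the 3 WT and 3 KO libraries, with the mean and SD of each group beside the points. The KO points of *Per2*, *Cry1* and *Nr1d2* all lie above the WT points, those of *Arntl*, *Clock* and *Nr1d1* all lie below, and those of *Npas2*, *Per1*, *Per3* and *Dbp* overlap with WT.

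Of the activators, *Arntl* (chr7:113178471-113314126) stood at 0.888, 0.932 and 1.06 CPM in WT and at 0.649, 0.843 and 0.743 CPM in KO. The groups did not overlap, yet the gap between the nearest libraries was small, and with 55 to 78 counts a library the log2 fold change came to −0.36 (SE 0.28, adjusted *p*=0.598). *Clock* (chr5:76209868-76305603), its partner, stood at 8.49, 10.1 and 8.97 CPM in WT and at 7.36, 7.85 and 6.86 CPM in KO. Again every KO library was below every WT library, with −0.32 on the log2 scale (SE 0.15, adjusted *p*=0.382). *Npas2* (chr1:39193702-39363240), which can replace CLOCK, had only 3, 9 and 12 counts in WT and 11, 11 and 10 in KO. At that depth a log2 fold change of 0.24 with an SE of 0.58 leaves its direction undetermined.

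Among the repressors, *Per2* (chr1:91415977-91459351) showed the largest log2 fold change of the 10 genes. It stood at 5.39, 10.8 and 7.85 CPM in WT (8.01 ± 2.70, mean ± SD, *n*=3) and at 17.4, 26.2 and 15.5 CPM in KO (19.7 ± 5.72, *n*=3). The lowest KO library was above the highest WT library. The log2 fold change was 1.30 (SE 0.27), with an unadjusted *p* of 0.000816 and an adjusted *p* of 0.0895 by edgeR, and with an adjusted *p* of 0.000276 by DESeq2. *Cry1* (chr10:85131700-85185054), which acts as the strongest repressor of the loop, stood at 1.43, 1.55 and 1.22 CPM in WT (1.40 ± 0.168, *n*=3) and at 2.48, 3.54 and 2.77 CPM in KO (2.93 ± 0.549, *n*=3). These groups were also apart, and the log2 fold change was 1.06 (SE 0.23), with an adjusted *p* of 0.0975 by edgeR and 0.00517 by DESeq2. The sister gene *Cry2* was at 11.4, 13.8 and 13.2 CPM in WT and at 14.2, 16.0 and 17.4 CPM in KO, apart by a narrow margin (log2 fold change 0.31, SE 0.15, adjusted *p*=0.393).

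The other *Per* genes did not share the difference of *Per2*. *Per1* (chr11:69095108-69109965) stood at 18.1, 21.2 and 15.2 CPM in WT and at 15, 24.4 and 13.9 CPM in KO, which left the log2 fold change at −0.03 (SE 0.23, adjusted *p*=0.966). The highest and the lowest of the 6 values were both KO libraries. *Per3* (chr4:150997018-151044707), whose protein contributes least to repression, stood at 3.46, 6.80 and 5.10 CPM in WT and at 7.14, 6.10 and 7.65 CPM in KO. The groups overlapped through the WT library 8-1, and the KO mean exceeded the WT mean (log2 fold change 0.44, SE 0.24, adjusted *p*=0.446). *Uts2*, which lies within the *Per3* locus on the opposite strand, had from 0 to 4 counts a library.

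The REV-ERB genes, usually described as a pair with nearly the same rhythm, stood on opposite sides of WT. *Nr1d1* (chr11:98767932-98775377) stood at 56.7, 57.7 and 46.3 CPM in WT (53.6 ± 6.32, *n*=3) and at 45.1, 26.5 and 30.5 CPM in KO (34.0 ± 9.78, *n*=3). The highest KO library was just below the lowest WT library, and the log2 fold change was −0.66 (SE 0.21), with an unadjusted *p* of 0.0108 and an adjusted *p* of 0.224. *Thra*, whose 3′ end shares 1075 bases with the *Nr1d1* locus, had 174 to 329 counts a library against 2011 to 4833 for *Nr1d1*. *Nr1d2* (chr14:18204056-18239106) stood at 32.2, 36.8 and 26.7 CPM in WT (31.9 ± 5.08, *n*=3) and at 39.4, 43.0 and 40.8 CPM in KO (41.1 ± 1.79, *n*=3). Here all KO libraries were above WT, at a log2 fold change of 0.36 (SE 0.16), with an unadjusted *p* of 0.0424 and an adjusted *p* of 0.354. The difference between *Nr1d1* and *Nr1d2* was not tested, since the pair was singled out after its values were seen.

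*Dbp* (chr7:45705100-45710203), the output factor that amplifies the rhythm through D-boxes, stood at 70.0, 51.5 and 56.9 CPM in WT and at 77.8, 49.5 and 68.9 CPM in KO. The highest and lowest values were again both from KO, and the fold change came to 0.14 on the log2 scale (SE 0.20, adjusted *p*=0.799). *Sphk2*, which shares 741 bases with the end of the *Dbp* locus on the opposite strand, was at 27.0 to 34.2 CPM in WT and 23.2 to 37.9 CPM in KO. Its log2 fold change was 0.07 (SE 0.20). Whether strand was used in counting is not given in the sources used here, so reads from such overlaps cannot be assigned to either gene.

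Of 12 other clock genes, 0 were called by edgeR or DESeq2, against 0.448% and 3.08% of all genes. Without adjustment 2 had a *p* under 0.05 by edgeR, both of them higher in KO, against 6.7% of all genes. For 4 of the 12, every KO library lay above every WT library, against 10.2% of all genes. *Tef*, a relative of *Dbp*, stood at 27.3, 30.7 and 24.7 CPM in WT and at 36.0, 40.6 and 43.5 CPM in KO, with groups apart (log2 fold change 0.54, SE 0.15, adjusted *p*=0.171). *Bhlhe40*, which competes for E-boxes, was likewise apart at 48.9 to 69.9 CPM in WT and 75.1 to 115 CPM in KO (log2 fold change 0.61, SE 0.20, adjusted *p*=0.243). The remaining genes included *Ciart*, a repressor of the loop whose rhythm follows that of *Nr1d1*, with a log2 fold change of 0.09 (SE 0.20). The 2 genes with a negative log2 fold change were *Bhlhe41* at −0.45 (SE 0.23, adjusted *p*=0.425), with overlapping groups, and *Rora* at −0.18 (SE 0.14). Every KO library lay below every WT library for *Rora*, by a narrow margin, as for 9.08% of all genes. The median over the 12 genes was 0.20.

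Of 11 genes known as rhythmic outputs of the liver clock, 0 were called by edgeR, against 0.448% of all genes. DESeq2 called 3 higher and 0 lower, against 3.08% of all genes in either direction. Without adjustment 4 had a *p* under 0.05 by edgeR, all of them higher in KO, against 6.7% of all genes. *Wee1*, a cell cycle kinase driven through E-boxes, stood at 1.91 to 3.6 CPM in WT and at 5.25, 9.51 and 8.70 CPM in KO (log2 fold change 1.42, SE 0.28, adjusted *p*=0.0856 by edgeR and 0.000188 by DESeq2). *Nampt*, the rate-limiting enzyme of NAD salvage, stood at 24.9, 32.8 and 25.6 CPM in WT and at 43.2, 50.6 and 43.6 CPM in KO (log2 fold change 0.72, SE 0.16, adjusted *p*=0.103 by edgeR and 0.00503 by DESeq2). The third gene called by DESeq2 was *Usp2*, a deubiquitinase, at 8.41 to 11.2 CPM in WT and 13.5 to 19.9 CPM in KO (log2 fold change 0.75, SE 0.18). *Alas1*, the first enzyme of haem synthesis, stood at 174, 174 and 178 CPM in WT and at 282, 230 and 227 CPM in KO (log2 fold change 0.49, SE 0.16, adjusted *p*=0.244). These 4 genes were apart, as were 10.2% of all genes in that direction. Of the 11 genes, 1 was apart in the other direction, against 9.08% of all genes, and the median over the 11 was 0.49. The output list was chosen for being rhythmic and not for a shared hour of peak, so it has no common direction by construction.

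**Figure D2:**
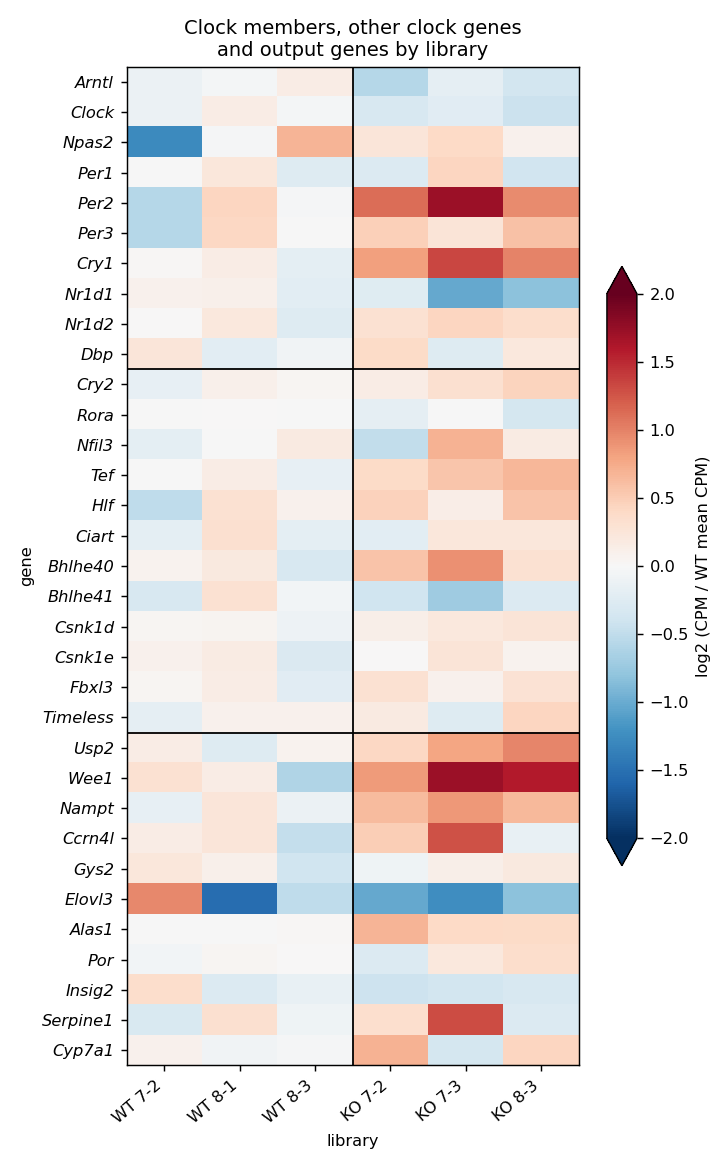
Log2 ratio of each library's CPM to the WT mean for the 10 clock genes (top), 12 other clock genes (middle) and 11 output genes (bottom), with WT libraries in the left 3 columns and KO libraries in the right 3. *Per2*, *Cry1*, *Tef*, *Usp2*, *Wee1* and *Nampt* are above the WT mean in all 3 KO libraries, while *Nr1d1*, *Arntl* and *Clock* are below it.

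A clock running at another phase would be expected, as background, to lower some transcripts and raise others according to their hour of peak, so the fold changes were set out in that order. The median log2 fold change was −0.06 over the 4 genes that peak around dawn, 0.36 over the 7 of the light phase and 0.63 over the 2 of dusk, and *Cry1*, of late night, was at 1.06. Genes of the same class did not all share a direction or size. Of the 7 light-phase genes, 6 had a positive log2 fold change and 1 a negative. *Nr1d1* at −0.66 and *Tef* at 0.54 belong to the same class, and so do *Per1* at −0.03 and *Per2* at 1.30. The classes are broad and the hour of sampling is not given, so no reading of phase was drawn from the spread within a class. Of the dawn genes, *Arntl* and *Clock* were on the lower side. *Npas2* at 0.24 (SE 0.58) and *Nfil3* at 0.20 (SE 0.26) differed by less than their SE, which leaves their direction undetermined. The dawn median rests in part on these genes.

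**Figure D3:**
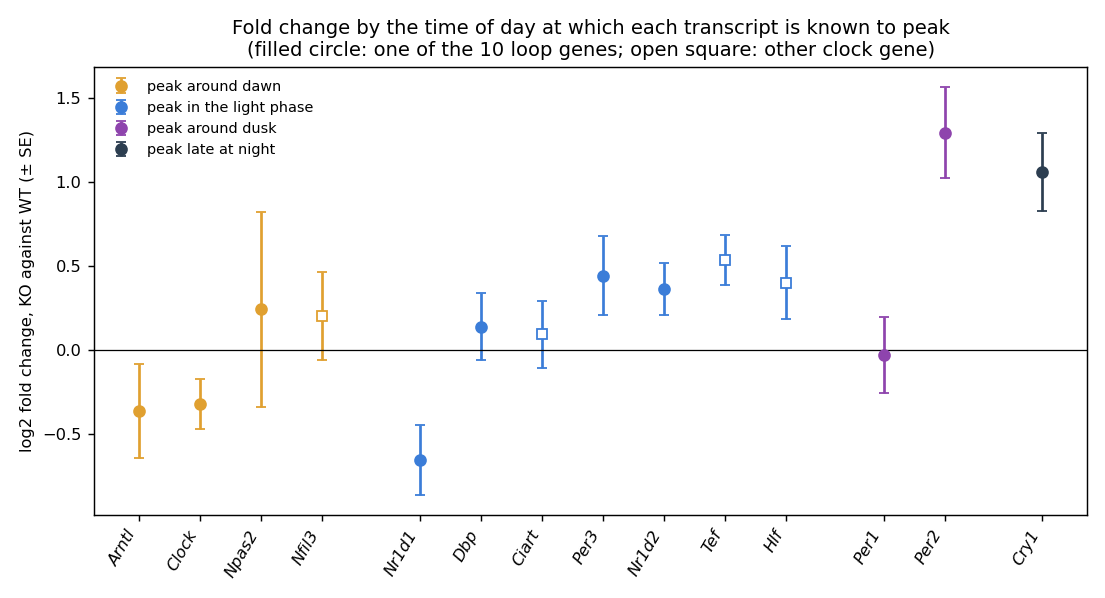
Log2 fold change of KO against WT with its SE (vertical axis) for 14 clock genes, ordered along the horizontal axis by the time of day at which each transcript is known to peak in mouse liver. *Arntl*, *Clock* and *Nr1d1* lie below 0, most light-phase genes lie between 0.09 and 0.54, *Per1* lies at −0.03, and *Per2* and *Cry1* lie above 1.

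A ratio of 2 genes within a library does not depend on the scaling of that library. The mean log2 CPM of the 4 dawn genes minus that of the 7 light-phase genes was −3.77, −3.65 and −3.12 in WT and −3.98, −3.35 and −3.87 in KO. The groups overlapped, with a difference of −0.22 between means, and the sign differed between libraries whose label begins with 7 (0.10) and those whose label begins with 8 (−0.48). The dawn mean includes *Npas2*, which had only 3 counts in WT 7-2. The value for labels that begin with 7 therefore rests in part on a count near the floor, and its sign is not read further. The log2 ratio of *Arntl* to *Dbp* counts, a pair with nearly opposite rhythms, was −6.30, −5.79 and −5.75 in WT and −6.90, −5.88 and −6.54 in KO, also with overlap. The log2 ratio of *Arntl* to *Nr1d1* counts was −6.00, −5.95 and −5.45 in WT and −6.12, −4.97 and −5.36 in KO, again with overlap. None of these 3 contrasts of dawn and day separated the genotypes. All 3 include *Arntl*, with 55 to 78 counts a library. The hour of sampling is not given, so how far such a contrast would move with phase is not known. No reading of phase was drawn from it.

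Other ratios, chosen after the values were seen and given without a test, did separate the libraries. For *Per2*, *Cry1* and *Nr1d2* against *Nr1d1* this was fixed in advance. Every KO library lay above WT for the first gene and below WT for *Nr1d1*. These ratios restate the values of the single genes and are no further support. The log2 ratio of *Per2* to *Nr1d1* counts was −3.40, −2.42 and −2.56 in WT and −1.37, −0.02 and −0.98 in KO, a difference of 2.00. That of *Cry1* to *Nr1d1* was −5.31, −5.22 and −5.25 in WT and −4.18, −2.90 and −3.46 in KO, a difference of 1.74. The WT libraries differed by less than 0.1 in this ratio, and the KO libraries were spread over more than 1 log2 unit. That of *Nr1d2* to *Nr1d1* was −0.82, −0.65 and −0.80 in WT and −0.19, 0.70 and 0.42 in KO. *Per2* to *Per1* showed the reverse pattern of spread, at −1.75, −0.98 and −0.96 in WT and 0.22, 0.10 and 0.15 in KO.

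**Figure D4:**
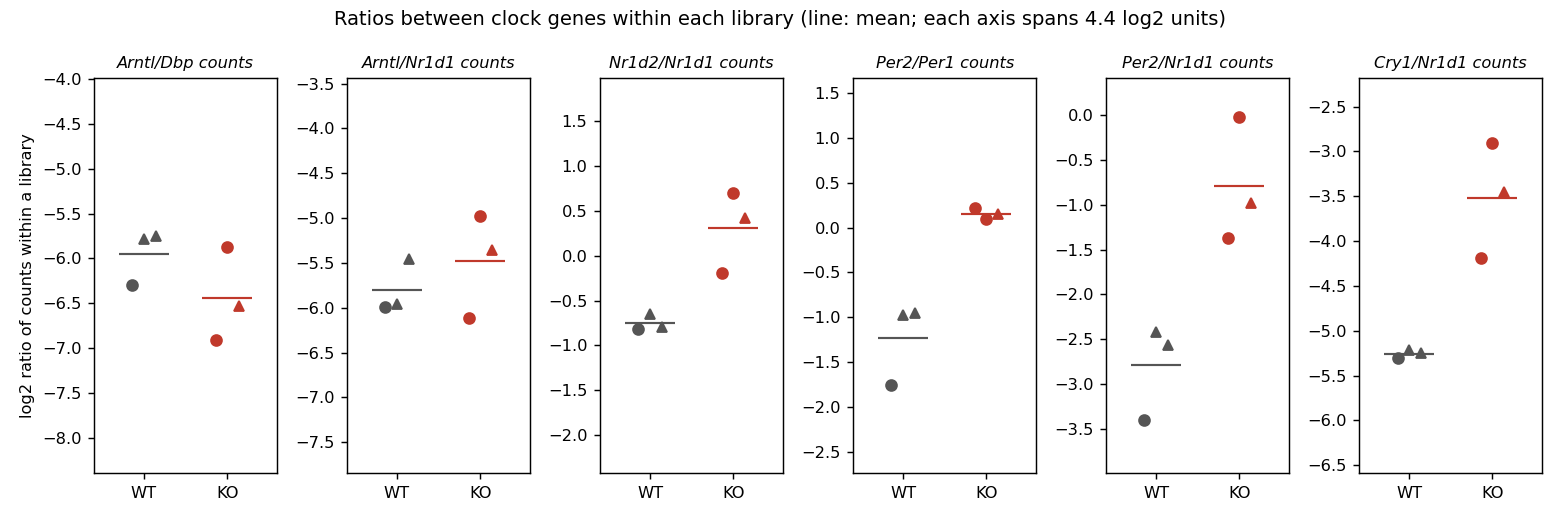
Log2 ratio of the counts of 2 clock genes within each library (vertical axes, each spanning the same number of log2 units), with circles for labels that begin with 7, triangles for labels that begin with 8 and a line at each group mean. *Arntl*/*Dbp* and *Arntl*/*Nr1d1* overlap between WT and KO, while *Nr1d2*/*Nr1d1*, *Per2*/*Per1*, *Per2*/*Nr1d1* and *Cry1*/*Nr1d1* are higher in all KO libraries. For *Nr1d2*, *Per2* and *Cry1* against *Nr1d1* this follows from the values of the single genes.

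Genes that report the cues of the liver clock were read beside these values. In the 4 lists edgeR called 0 of them, against 0.448% of all genes. Of 7 glucocorticoid-responsive genes, 2 had a *p* under 0.05 without adjustment, and both were lower in KO, against 6.76% of all genes. These were *Fkbp5*, at 24.3, 35.2 and 25.2 CPM in WT and 13.8, 15.2 and 27.2 CPM in KO, and *Cdkn1a*, which encodes the cell cycle inhibitor p21, at 0.706 to 1.66 CPM in WT and 0.267 to 0.408 CPM in KO (log2 fold change −1.87, SE 0.40, adjusted *p*=0.0927 by edgeR and 0.00218 by DESeq2). Of 8 temperature-responsive genes, 0 had such a *p*, and 6 had a positive and 2 a negative log2 fold change. Their summed level was 1380 to 2905 CPM in WT and 1779 to 2282 CPM in KO. Most of it was *Hspa8*, at 1041 to 2141 CPM in WT. *Hspa1a* stood at 38.0, 7.17 and 6.91 CPM in WT and at 13.1, 24.2 and 21.1 CPM in KO. With each library left out in turn, its log2 fold change ranged from −0.21 to 1.47, so its direction depends on the libraries kept. Of 9 feeding and fasting genes, 1 was higher and 2 were lower at an unadjusted *p* under 0.05 by edgeR, against 6.7% and 6.76% of all genes. *Srebf1*, the lipogenic factor, stood at 58.5, 64.3 and 95.4 CPM in WT and at 113, 139 and 156 CPM in KO (log2 fold change 0.90, SE 0.22, adjusted *p*=0.132 by edgeR and 0.00283 by DESeq2). By contrast, *Igfbp1* at −1.26 (SE 0.43) and *Pdk4* at −0.90 (SE 0.33), both known as fasting genes, overlapped between groups. The part of feeding or glucocorticoid signals in the clock values was not tested.

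Immediate early genes, which share signals with *Per1* and *Per2*, were uneven among the livers of both genotypes. *Fos* and *Jun* were the 2 of the 7 tested with an unadjusted *p* under 0.05 by edgeR. Both were higher in KO, against 6.7% of all genes. *Fos* stood at 0.542, 0.191 and 0.353 CPM in WT and at 0.319, 4.10 and 0.720 CPM in KO. *Jun* stood at 4.09, 3.21 and 2.32 CPM in WT and at 4.51, 13.9 and 7.61 CPM in KO (log2 fold change 1.44, SE 0.37, adjusted *p*=0.154 by edgeR and 0.00311 by DESeq2). *Egr1* stood at 34.4, 4.09 and 3.91 CPM in WT and at 5.38, 9.91 and 10.7 CPM in KO, and *Junb* at 24.5, 8.21 and 13.8 CPM in WT and at 7.10, 13.1 and 13.5 CPM in KO, so WT 7-2 was the highest library in this pair of genes. KO 7-3 was the highest of the 6 libraries in *Fos* and *Jun*, and also in *Per1*, *Per2*, *Cry1* and *Nr1d2*, and it was the lowest in *Nr1d1*. Without that library the log2 fold change was 1.03 for *Per2*, 0.90 for *Cry1* and −0.50 for *Nr1d1*, and each kept its direction. By the first number of the label, the log2 ratio of mean KO CPM to mean WT CPM was taken, which is not edgeR's log2 fold change. Within libraries whose label begins with 7 (1 WT and 2 KO), it was 2.02 for *Per2*, 1.07 for *Cry1*, −0.66 for *Nr1d1* and 0.36 for *Nr1d2*. Within those whose label begins with 8 (2 WT and 1 KO), it was 0.73 for *Per2*, 1.00 for *Cry1*, −0.77 for *Nr1d1* and 0.36 for *Nr1d2*. What these label numbers stand for is not stated. The part of these signals in the *Per2* values was not tested.

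Bulk RNA from liver mixes hepatocytes with other cells, so fewer cells of a type and less RNA per cell cannot be told apart. Summed stellate cell markers were at 31.4 to 39.8 CPM in WT and 52.4 to 61.2 CPM in KO, with 3 of 6 higher and apart (*Lrat*, *Reln* and *Dcn*), where 10.2% of all genes lay apart in that direction. The other 3 had negative log2 fold changes with overlapping groups, the lowest being *Col1a1* at −0.22 (SE 0.17). Summed macrophage markers were at 44.2 to 56.7 CPM in WT and 35.1 to 42.4 CPM in KO. All 6 macrophage markers overlapped between groups. *Cd68* (log2 fold change −0.86, SE 0.28) and *Marco* (−0.95, SE 0.34) had an unadjusted *p* under 0.05 by edgeR, both lower in KO, against 6.76% of all genes. Summed sinusoidal endothelial markers were at 38.8 to 41.3 CPM in WT and 41.1 to 51.0 CPM in KO. Summed cholangiocyte markers were at 29.4 to 52.8 CPM in WT and 27.8 to 33.7 CPM in KO. Lymphocyte and neutrophil markers each summed to less than 5 CPM in every library. The share of these cells in the clock values was not tested.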

How the data were processed

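For 6 libraries the authors deposited the raw count of each gene, which they obtained with Bedtools 2.25.0 from uniquely and multiply aligned reads. The submitters' processing notes name mm10 and TopHat. Not given in the sources used here were the version of the aligner, the annotation and whether strand was used. These counts precede the quantile normalisation of the study's methods. Libraries held 60619938 to 133384586 counts. The genotypes were compared with the quasi-likelihood test of edgeR 4.0.16 (with limma 3.58.1 under R 4.3.3) on all 14076 genes kept by filterByExpr (minimum count 10, minimum total count 15), with TMM factors. Adjusted *p* values are Benjamini-Hochberg values over those genes, called under 0.05, and the SE is the log2 fold change divided by the square root of *F*. The biological coefficient of variation was 23.9%. DESeq2 1.42.0, other scalings, filters, limma fits, replicate blocks and leaving out each library were alternatives. On simulated counts, edgeR recovered 50 of 100 genes changed by 1 on the log2 scale and 87 of 100 changed by 2, with 12 false calls among 149. On the same counts DESeq2 recovered 58 and 92, with 28 false calls among 178, so its calls are to be read with more caution.

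The files hold no coordinates, so positions and overlaps come from RefSeq GRCm38.p6, in which 22845 accessions were found, and promoter windows come from the same build. The text names the 10 clock genes, *Tcf7l2*, called genes and up to 4 genes with the smallest *p* of each pathway list, genes that overlap a clock gene, and the 5 genes most correlated with *Arntl* and with *Dbp* (mean log2 CPM above 1). *Ciart*, *Rora*, *Cry2*, *Nfil3*, *Egr1*, *Junb*, *Hspa1a*, *Hspa8*, the marker genes and the ratios against *Nr1d1* and *Per1* were named after their values were seen. Noct is listed as *Ccrn4l*. Some listed genes are not reported here and were left out of the counts of their lists. The clock genes and lists were chosen with earlier results of these data known. Each library was taken as 1 animal, and *p* values measure only the spread between these libraries.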

Additional observations from a re-analysis of the deposited data

How the results depend on the processing

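The same-numbered libraries did not deviate together (correlations of 0.008 and −0.007), and the labels do not say what the numbers mark, so the libraries were not taken as pairs. A replicate block on the whole label number or on its first number left 0 clock genes called, and the block on the first number took the count over all genes from 63 to 39. With the block on the whole number, WT 8-1 and KO 7-3 each stand alone and add nothing to the comparison of genotypes. That fit called 49 genes over all genes. It rests only on the libraries that share a number, so its lack of called clock genes says little. With each library left out in turn, 0 of the 10 clock genes were called each time, and from 24 to 87 genes were called over all genes (24 without WT 8-1, 30 without KO 7-2, 37 without WT 8-3 and 40 without KO 8-3). Of the other clock and output genes, 0 were called each time. Over these omissions the log2 fold change ranged from −0.11 to 0.72 for *Npas2*, from −0.33 to 0.12 for *Per1* and from −0.01 to 0.30 for *Dbp*, and the other 7 clock genes kept their sign. With library sizes alone, 3024 genes, 4 clock genes, 14 other clock and output genes and 7 cue genes were called, and log2 fold changes became 0.26 for *Arntl*, 0.32 for *Clock*, 0.58 for *Per1*, 0.003 for *Nr1d1*, 1.97 for *Per2*, 1.146 for *Per3*, 1.69 for *Cry1* and 1.00 for *Nr1d2*, before the shift of all genes is taken off. With no filter on low counts, 96 genes, 1 clock gene (*Per2*, 1.30) and 1 other clock or output gene were called. DESeq2 called 433 genes, 2 clock genes (*Per2*, 1.30, and *Cry1*, 1.07), 3 other clock and output genes, 3 cue genes and *Tcf7l2* (−0.92). The cause of these differences was not tested.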

Other observations

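Genes whose log2 CPM over the 6 libraries was most like that of a clock gene were listed as a description, with no test, since the closest of many genes over 6 points correlate highly by selection. Nearest to *Arntl* were *Itih3* (Pearson's r of 0.989), *Cand2* (0.986), *Kcnj12* (0.976), *Slc3a1* (0.976) and *Kif1a* (0.976). Nearest to *Dbp* were *Apoa5* (0.985), *Pctp* (0.985), *Bdh1* (0.984), *Paqr7* (0.976) and *Snw1* (0.976). None of these 10 genes was called between the genotypes by edgeR, and their adjusted *p* values ran from 0.36 to 0.927.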
